A study of Mus musculus with 26 samples.

Results

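The Toll-like receptor family was followed through the fat of lean, obese and formerly obese mice: the 10 genes Tlr1 to Tlr9 and Tlr13, taken by symbol from the 39017 rows of the adipocyte and stromal count tables. Male C57BL/6J mice were fed a low fat diet (LFD, 10% fat) or a high fat diet (HFD, 60% fat) from 9 to 10 weeks of age. LFD and HFD mice stayed on their diet for 12 weeks, and formerly obese mice (SW) had HFD for 9 weeks and then LFD for 3 weeks. Epididymal fat pads were digested with collagenase and spun, giving a floating fraction (adipocytes) and a pellet (stromal vascular cells, SVCs), whose polyA RNA was sequenced. The values used are 3 adipocyte libraries per diet, and in SVCs 3 SW, 2 HFD and 1 LFD library. Within a group, libraries are called A, B and C in the order in which their values are given. Nothing in the labels says whether a library came from 1 mouse or a pool, so p-values measure the spread between these libraries.

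Toll-like receptors are membrane proteins that bind molecules of microbes or of damaged cells. Those at the cell surface, TLR1, TLR2, TLR4, TLR5 and TLR6, bind lipids and proteins such as bacterial lipoproteins, lipopolysaccharide and flagellin. Those in endosomes, TLR3, TLR7, TLR8, TLR9 and TLR13, bind nucleic acids and need a chaperone, UNC93B1, and cleavage by lysosomal proteases. In fat they are best known from macrophages, while TLR3 and TLR4 are also found in adipocytes. Most signal through the adaptor MyD88, TLR3 through TRIF (gene Ticam1), and TLR4 through both, to NF-kappaB and interferon regulatory factors and from there to cytokine genes.

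The members lie on 7 chromosomes, given here by the GENCODE M21 annotation of GRCm38, while the labels name mm9 as the build of the reads. Tlr8 (chrX:167242696-167264329) and Tlr7 (chrX:167304929-167330558) are neighbours on the minus strand with a gap of 40599 bases and no gene between. Tlr6 (chr5:64952031-64960097) and Tlr1 (chr5:64924679-64933563) are neighbours as well, 18467 bases apart. They also share sequence: 259 windows of 100 bases are identical in their longest transcripts, 8.85% of those of Tlr1 and 7.24% of those of Tlr6, so reads from there could be split between them. No other pair of members shared such a window. Tlr13 (chrX:106143204-106160493, plus strand) lies elsewhere on the X chromosome, and Tlr9 is at chr9:106222598-106226883. The other members are Tlr2 (chr3:83836272-83841767), Tlr3 (chr8:45395665-45411080), Tlr4 (chr4:66827584-66930284) and Tlr5 (chr1:182954788-182976044). An antisense gene, Gm45542, overlaps 7.3% of the exonic bases of Tlr3 and has no row in the tables used here.

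The 4 members whose RNA rose by the largest fold on HFD in adipocytes (below) are shown by the sequence upstream of their starts, from RefSeq on GRCm38.p6, to let their promoters be compared. RefSeq promoter windows matched 8 of the 10 members, in 10 windows. Capitals mark the PU box, GAGGAA on either strand, a run of letters bound by factors of the ETS family. It was found in 4 of the 10 member windows and in 23.3% of all 32851 windows of 250 bases before a start. Its first base lies at -77 for Tlr8 (on the other strand), -83 for Tlr13, -112 for Tlr9 and -23 for Tlr1, counted from the RefSeq start. For Tlr13 and Tlr1 that start lies inside an annotated exon, so 71 and 5 exonic bases between the printed stretch and the RefSeq start are counted but left out. The 4 stretches are chrX:167264330-167264579 (minus strand), chrX:106143025-106143203 (plus), chr9:106222348-106222597 (plus) and chr5:64933564-64933808 (minus), each 5′ to 3′ on the gene's strand and without exonic bases.
Tlr8: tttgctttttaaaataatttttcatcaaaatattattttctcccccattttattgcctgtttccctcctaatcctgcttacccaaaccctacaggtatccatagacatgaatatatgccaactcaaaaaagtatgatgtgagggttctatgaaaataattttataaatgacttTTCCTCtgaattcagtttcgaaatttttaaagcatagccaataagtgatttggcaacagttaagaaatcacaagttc
Tlr13: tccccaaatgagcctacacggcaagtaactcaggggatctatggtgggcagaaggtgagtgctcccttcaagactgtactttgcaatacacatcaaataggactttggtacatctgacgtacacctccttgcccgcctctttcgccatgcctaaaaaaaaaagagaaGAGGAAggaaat
Tlr9: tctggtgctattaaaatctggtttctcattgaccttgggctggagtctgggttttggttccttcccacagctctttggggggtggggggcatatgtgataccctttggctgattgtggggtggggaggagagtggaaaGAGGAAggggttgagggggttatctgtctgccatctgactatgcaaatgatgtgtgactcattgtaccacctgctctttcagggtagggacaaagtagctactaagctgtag
Tlr1: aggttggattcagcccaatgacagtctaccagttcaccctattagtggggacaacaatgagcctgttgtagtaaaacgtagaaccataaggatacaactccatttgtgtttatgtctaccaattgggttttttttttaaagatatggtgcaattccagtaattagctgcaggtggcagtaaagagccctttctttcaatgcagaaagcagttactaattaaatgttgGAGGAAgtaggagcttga
The search also covered a kappaB motif, GGG and CC with any 5 bases between, in 4 of 10 member windows against 45.8% of all, and an interferon-stimulated response element, GAAA repeated after any 2 bases, in 1 of 10 (a Tlr6 window) against 2.98%. These are matches of letters, chosen with the members' values known, and no more.

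Library totals ran from 5781902 to 23725647 counts. Levels are given as CPM, counts scaled to library size, on 1 scale over the 15 libraries, and a count of 0 allowed up to 0.114 to 0.65 CPM. In the adipocyte fraction 10 adipocyte markers summed to 4030 to 23300 CPM against 274 to 1150 CPM in SVCs. Macrophage markers were present there too: 11 genes, among them Adgre1 and Csf1r, summed to 679 to 1100 CPM in LFD, 7730 to 8940 in HFD and 5600 to 8310 in SW adipocytes, with none at 0. In SVCs the same list gave 10500 CPM in the LFD library, 11000 to 23100 in HFD and 17000 to 24200 in SW. The HFD SVC libraries stood apart from each other. HFD library A had 6.34% of counts from the mitochondrial genome and HFD library B had 33.5%, against 4.36% to 13.8% in all others. Hemoglobin shares of HFD libraries A and B were 0.289% and 3.12%, against 2.78% to 5.21% in the other SVC libraries.

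In adipocytes of obese mice 9 of the 10 receptors were higher than in lean mice, by 2.23-fold to 72.2-fold, and Tlr3 was not. Without Tlr9, which passed the filter on low counts only through HFD, they were 8 of 9. Tlr8, with the 72.2-fold, is in each of these counts and in the median below. Its rise was known when the family was chosen, so its call is no support for them. Of the 14461 genes tested, 26.5% were called higher (edgeR quasi-likelihood test, adjusted p under 0.05). The median log2 fold change was 2.99 over the members and -0.03 over all genes. Summed over the family, the level was 48.8 ± 7.42 CPM (SD, n = 3) in LFD, 301 ± 56.7 in HFD and 140 ± 12.8 in SW adipocytes. All 9 receptors called had every HFD library above every LFD library, as did 33% of all genes tested. Macrophage markers moved the same way, 11 of 11 called higher with a median of 3.02, and their part in these differences was not tested. Of the other cell lists, fibroblasts and progenitors had 3 of 6 markers higher, and no dendritic cell, neutrophil, B cell, T cell, endothelial, mesothelial or erythroid marker was called higher. Called lower were 8 of 10 adipocyte, 5 of 5 erythroid, 4 of 6 endothelial, 3 of 5 mesothelial and 2 of 6 dendritic cell markers. Of all genes tested 25% were called lower. No neutrophil, B cell or T cell marker was called, with 4 of 6, 4 of 5 and 5 of 6 tested. In bulk fractions fewer cells of a type and less RNA per cell cannot be told apart.

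**Figure D1:**
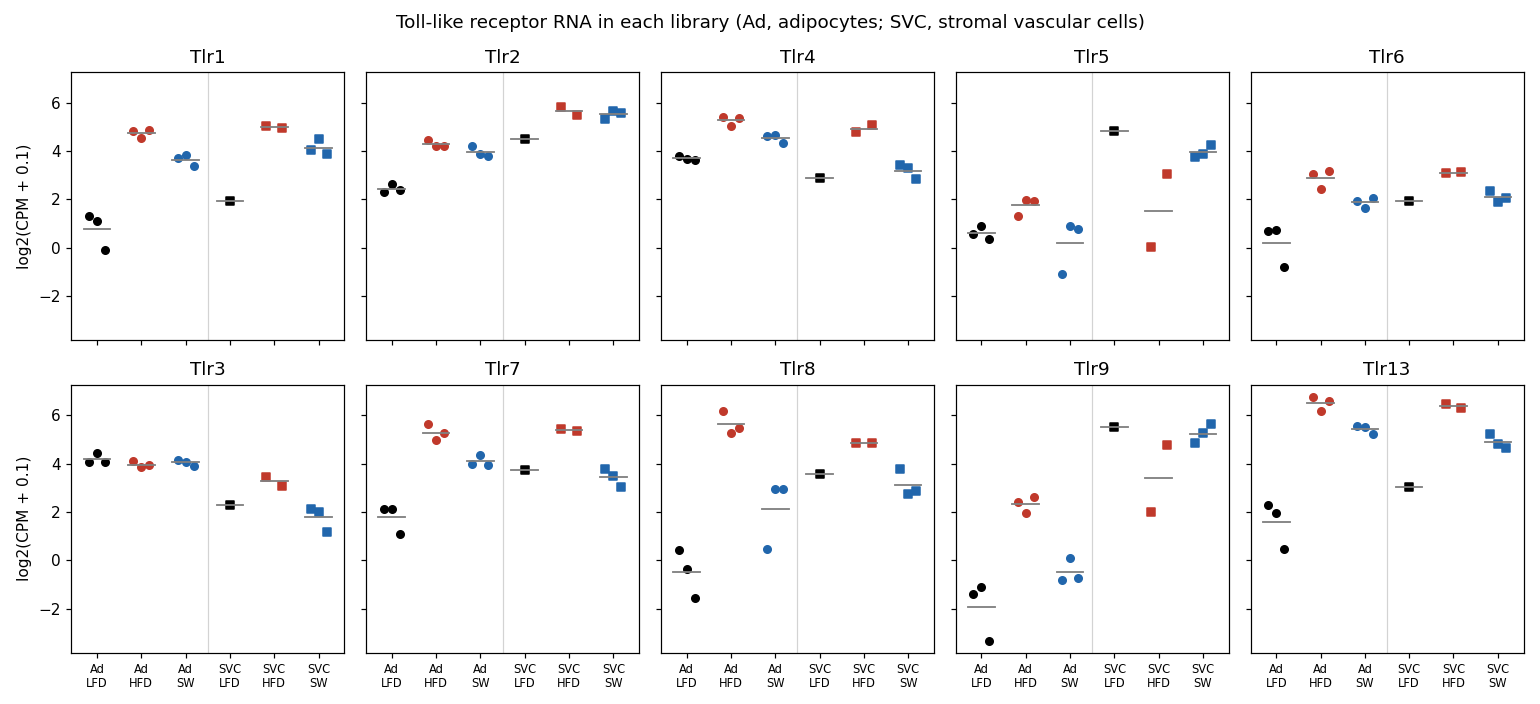
Level of each receptor in the 15 libraries, log2(CPM + 0.1) on the vertical axis, by fraction and diet (circles, adipocytes; squares, SVCs; black, LFD; red, HFD; blue, SW; grey line, mean of the log2 values). In adipocytes the HFD libraries lie above the LFD libraries in every panel but that of Tlr3, while the highest values of Tlr1, Tlr2, Tlr5 and Tlr9 are in SVCs.

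Among the endosomal receptors Tlr8, a sensor of RNA breakdown products, changed the most. Its level was 72.9, 38.4 and 43.9 CPM in the HFD adipocyte libraries and 1.25, 0.691 and 0.238 CPM in the LFD libraries, from 1086, 1011 and 1085 counts against 9, 15 and 2. The SW libraries gave 1.31, 7.67 and 7.65 CPM. The HFD libraries were far above both other diets, and 1 of the 3 SW libraries lay near the LFD level. HFD exceeded LFD by 6.17 ± 0.65 on the log2 scale (± SE, adjusted p = 5.67e-05), a rise known when the family was chosen.

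Tlr13, which in mice senses bacterial ribosomal RNA, led the family per length of transcript in obese adipocytes. It reached 109, 72 and 95.3 CPM in HFD, 4.74, 3.78 and 1.31 CPM in LFD and 47.6, 45.5 and 37.3 CPM in SW adipocytes. The 3 diets did not overlap, and HFD was 27.4-fold above LFD (log2 4.77 ± 0.33, adjusted p = 7.64e-06). Tlr7, the neighbour of Tlr8 and a sensor of single-stranded RNA, had the same order: 49.3, 31.7 and 38 CPM in HFD, 4.32, 4.33 and 2.02 in LFD, and 15.6, 20.5 and 15.3 in SW. Its rise on HFD was 10.7-fold (log2 3.42 ± 0.28, adjusted p = 1.45e-05).

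Tlr9, the receptor for unmethylated CpG DNA, was scarce in adipocytes. HFD libraries had 5.24, 3.79 and 6.06 CPM (78, 100 and 150 counts) and LFD libraries 0.279, 0.368 and 0 CPM (2, 8 and 0 counts). SW libraries had 0.468, 0.966 and 0.514 CPM, just above the LFD range. The fitted difference between HFD and LFD, 4.25 ± 0.53 on the log2 scale (adjusted p = 0.000152), therefore rests on 10 counts in the LFD group. Tlr9 passed the filter on low counts only through the HFD libraries, and in a fit of LFD and SW alone it was not tested, so its difference is given as a value and not as support for the count of receptors called. Tlr3, the receptor for double-stranded RNA, was different: 17.2, 14.3 and 15.2 CPM in HFD, 16.6, 21.5 and 16.9 in LFD and 17.9, 16.7 and 15 in SW. Its diets overlapped, and HFD differed from LFD by -0.27 ± 0.14 (adjusted p = 0.143).

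At the cell surface Tlr1 rose the most. Tlr1 pairs with TLR2 to bind triacylated lipoproteins, and its level was 28.7, 23.3 and 29.5 CPM in HFD, 2.37, 2.07 and 0.832 in LFD and 13.2, 14.1 and 10.3 in SW adipocytes. That was a 14.8-fold rise on HFD (log2 3.89 ± 0.27, adjusted p = 8.02e-06), with no overlap among diets. Tlr6, the other partner of TLR2, had 8.19, 5.31 and 9.02 CPM in HFD and 1.53, 1.57 and 0.475 in LFD, with 3.75, 3.06 and 4.05 in SW (HFD against LFD, log2 2.56 ± 0.36, adjusted p = 0.000325). Tlr2 itself rose less, from 4.88, 6.08 and 5.11 CPM in LFD to 22.1, 18.5 and 18.5 in HFD (log2 1.83 ± 0.16, adjusted p = 2.29e-05). SW libraries, at 18.4, 14.7 and 13.9 CPM, stayed close to HFD.

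Tlr4, the lipopolysaccharide receptor, was already present in lean adipocytes at 13.8, 12.6 and 12.4 CPM. HFD libraries had 42.1, 32.5 and 41.6 CPM and SW libraries 24.5, 25.5 and 20, so the diets again formed separate ranges (HFD against LFD, log2 1.57 ± 0.15, adjusted p = 3.41e-05). Tlr5, the flagellin receptor, was low throughout, with 2.42, 3.87 and 3.72 CPM in HFD, 1.39, 1.75 and 1.19 in LFD and 0.375, 1.77 and 1.61 in SW. Its HFD difference of 1.16 ± 0.43 had an adjusted p of 0.0442, which rose above 0.05 in 6 of 12 alternatives (0.0099 to 0.125), among them leaving out HFD library B or C or any LFD library.

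**Figure D2:**
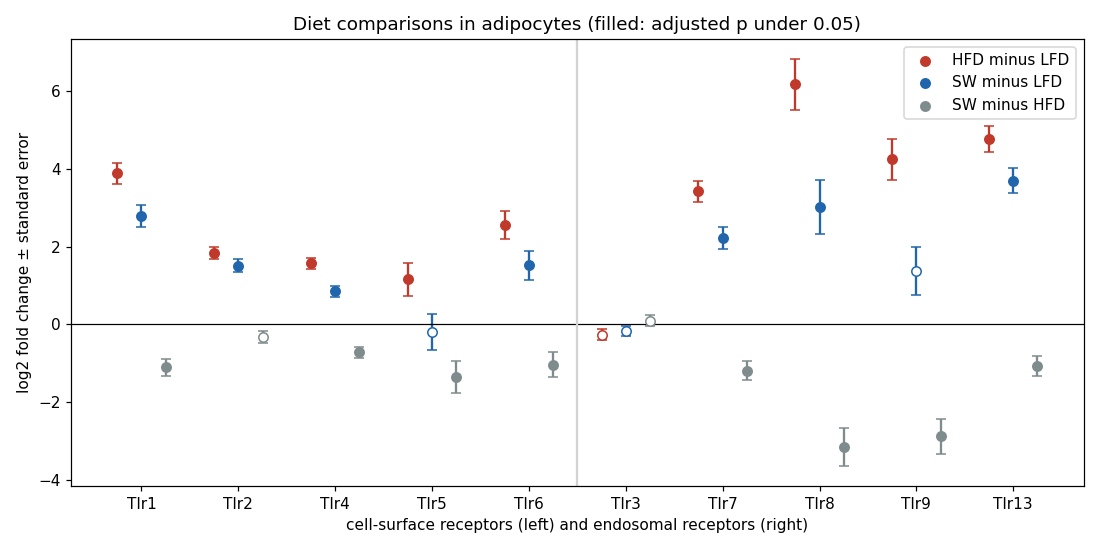
Log2 fold change ± SE of each receptor between diets in adipocytes (red, HFD minus LFD; blue, SW minus LFD; grey, SW minus HFD; filled where adjusted p was under 0.05). Tlr8 has the largest rise, 6.17, and Tlr3 stays within 0.27 of 0 in all 3 comparisons.

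After the return to LFD, 8 of the 10 receptors were lower than in obese adipocytes and none was higher (15.9% of genes tested were called lower). Tlr8 and Tlr9 are among these 8. The HFD rise of Tlr8 was known in advance and Tlr9 passed the filter only through HFD, so neither supports the count. For Tlr8 the log2 difference was -3.15 ± 0.48 (adjusted p = 0.00433), and for Tlr9 it was -2.88 ± 0.44 (adjusted p = 0.00437). The other 6 called fell by 0.72 (Tlr4) to 1.35 (Tlr5) on the same scale. Tlr2 differed by -0.32 ± 0.15 (adjusted p = 0.122) and Tlr3 by 0.10 ± 0.14 (adjusted p = 0.609). The macrophage list had 5 of 11 markers lower and none higher. Without HFD library C the calls were 5, and those of Tlr5, Tlr6 and Tlr13 were the ones lost. The Tlr6 call was also lost without HFD library A or any SW library (adjusted p up to 0.123) and the Tlr13 call without HFD library A (up to 0.0567). That of Tlr5 was also lost without HFD library B or SW library C and in a fit of HFD and SW alone (up to 0.105). Over all genes, leaving it out took the calls of either direction from 4546 to 1522.

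Compared with lean mice, SW adipocytes kept 7 of the 10 receptors higher (10.9% of genes tested were called higher). Tlr8 is among these 7. It shares the LFD libraries of the HFD rise known in advance, so it does not support the count. The largest remaining differences were those of Tlr13 (log2 3.70, adjusted p = 6.89e-05), Tlr8 (3.02 ± 0.70, adjusted p = 0.0146) and Tlr1 (2.79, adjusted p = 0.000117). Tlr7 (2.23), Tlr6 (1.52), Tlr2 (1.51) and Tlr4 (0.85) were higher as well. Tlr9 (1.37 ± 0.61, adjusted p = 0.155), Tlr5 (-0.19, adjusted p = 0.817) and Tlr3 (-0.17, adjusted p = 0.471) were not called. Of 12 alternatives, 5 took the Tlr8 call away (adjusted p up to 0.0828), namely limma-voom, no filter on low counts, and leaving out LFD library B, LFD library C or SW library B. The Tlr6 call in SW against LFD was lost without SW library C (adjusted p = 0.0519). The macrophage list had 10 of 11 markers higher in this comparison, with a median of 2.54 against 1.52 for the receptors, and their part in it was not tested. For the mean of HFD and SW, 8 receptors were higher than in LFD (20.7% of genes tested were), all but Tlr3 and Tlr5. Here too Tlr8 and Tlr9 are counted but do not support the count, for their part in HFD was known or set by the filter.

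Expressed as a share of the log2 rise on HFD, the fall after the switch was 0.175 for Tlr2, 0.224 for Tlr13, 0.283 for Tlr1, 0.349 for Tlr7, 0.406 for Tlr6, 0.456 for Tlr4, 0.511 for Tlr8, 0.678 for Tlr9 and 1.16 for Tlr5, whose SW level was near that of LFD. These shares use the HFD libraries on both sides and are given as a description. SW library A had the lowest Tlr8 level of its group, 1.31 CPM, and the highest macrophage sum, 8310 CPM against 5860 and 5600. Its T cell markers also summed the highest, 28.4 CPM against 14.4 and 4.31. These are values of 1 library, and whether they are linked was not tested.

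Scaled to length (CPM per kb of the longest transcript), the order of the receptors was different in each diet. In lean adipocytes Tlr3 led at 4.16 ± 0.623 CPM per kb, 33.8% of the family, followed by Tlr4 at 3.17 ± 0.186 (26.0%) and Tlr2 at 1.78 ± 0.211, with separate ranges, while Tlr7, Tlr13, Tlr1, Tlr5, Tlr6, Tlr8 and Tlr9 lay below, each overlapping the next. In obese adipocytes Tlr13 led at 22.7 ± 4.61 (28.0%), with Tlr8 at 15.1 ± 5.4 (18.3%), Tlr7 at 10.2, Tlr4 at 9.5 and Tlr1 at 8.98, each overlapping the next. Below them were Tlr2 at 6.54, Tlr3 at 3.53, Tlr6 at 2.04, Tlr9 at 1.45 and Tlr5 at 0.874. In SW adipocytes Tlr13 still led at 10.7 ± 1.34 (28.9%), above Tlr4 at 5.72, while Tlr8 held 4.43% of the family. Tlr4, Tlr2 (5.2), Tlr7 (4.4), Tlr1 (4.14) and Tlr3 (3.75) each overlapped the next, and Tlr8 (1.62), Tlr6 (0.984), Tlr5 (0.328) and Tlr9 (0.187) lay below. The 5 endosomal receptors made up 49.4 ± 2.74% of the family in LFD, 65.1 ± 3.22% in HFD and 55.8 ± 1.93% in SW adipocytes (n = 3 each). The HFD libraries, 63.0% to 68.8%, lay above all others of this fraction. These shares include Tlr8, whose rise was known when the family was chosen. Alone it held 15.8% to 22.1% in HFD, 0.68% to 2.79% in LFD and 1.01% to 6.69% in SW libraries.

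**Figure D3:**
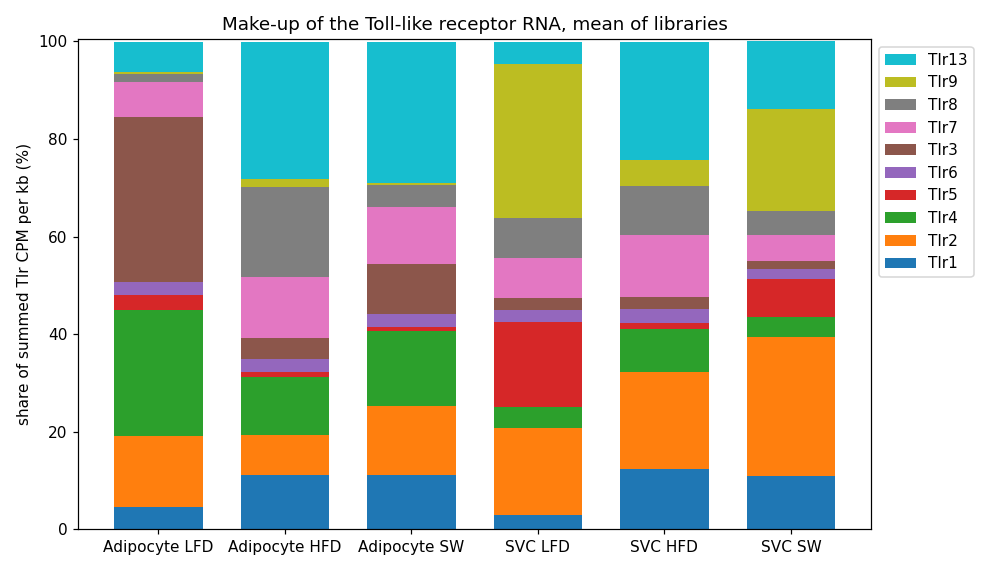
Share of each receptor in the summed level per kb (%, mean of the libraries of a group), with cell-surface receptors at the bottom and endosomal receptors on top. Tlr3 holds 33.8% in LFD and 4.42% in HFD adipocytes, and Tlr9 holds 31.5% in the LFD SVC library.

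The receptors were also set against the macrophage markers, as a level per 1000 CPM of the summed list. On this scale HFD libraries lay wholly above LFD libraries for Tlr1, Tlr7, Tlr8, Tlr9 and Tlr13, and wholly below for Tlr2, Tlr3, Tlr4 and Tlr5, while Tlr6 overlapped. Among all genes 1.02% lay wholly above and 95.1% wholly below. Tlr8 and Tlr9 are among the receptors above. The HFD rise of Tlr8 was known in advance and Tlr9 passed the filter only through HFD, so neither supports a contrast with all genes. For Tlr8 the ratio was 0.35 to 1.16 in LFD, 4.91 to 8.38 in HFD and 0.158 to 1.37 in SW adipocytes, so SW overlapped LFD. In SVCs it was 1.14 in LFD, 1.24 to 2.65 in HFD and 0.27 to 0.792 in SW. Tlr13 had 1.93 to 4.37, 9.31 to 12.6 and 5.73 to 7.78 in the same order of adipocyte groups, with SW apart from both. Tlr3 went from 15.3 to 24.9 in LFD to 1.7 to 1.98 in HFD, while its own level overlapped between these diets. With the median of the list, or Adgre1 and Csf1r alone, as the denominator, Tlr7 overlapped as well. The log2 rise on HFD was 4.77 for Tlr13 and 6.17 for Tlr8, the latter known when the family was chosen. Of the macrophage list Adgre1 (the F4/80 antigen) rose the most, at 4.49 ± 0.20. The part of macrophages in these ratios and rises was not tested.

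**Figure D4:**
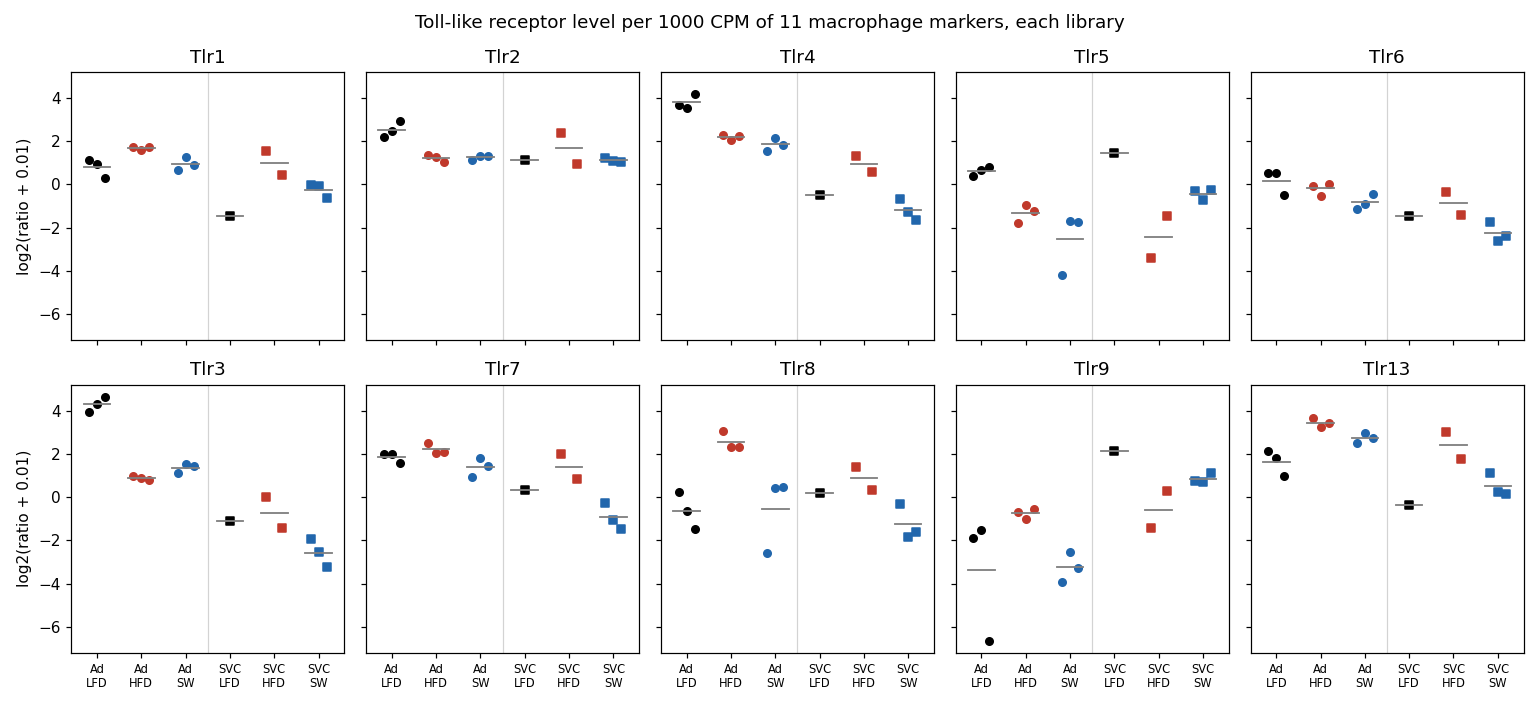
Receptor level per 1000 CPM of the 11 macrophage markers, log2(ratio + 0.01), in each library (symbols, colours and lines as in the plot of levels). Tlr8 and Tlr13 stand higher in HFD adipocytes, with lowest values of 4.91 and 9.31, than in LFD adipocytes, with highest values of 1.16 and 4.37.

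In SVCs, 4 receptors fell between HFD and SW mice (11.7% of 16319 genes were called lower). Tlr7 was 43.5 and 40.6 CPM in HFD and 13.8, 11.2 and 8.11 in SW libraries, a fall of 2.02 on the log2 scale (adjusted p = 0.0362). Tlr4 went from 27.2 and 34 CPM to 10.6, 9.67 and 7.02 (fell by 1.84, adjusted p = 0.0362), and Tlr8 from 29.3 and 28.6 CPM to 13.5, 6.53 and 7.14 (fell by 1.77, adjusted p = 0.0381). Tlr13 went from 88.7 and 79.2 CPM to 37.3, 28.2 and 24.8 (fell by 1.58, adjusted p = 0.0362). In each the groups did not overlap, as in 28.3% of genes. Without any 1 of the 3 SW libraries none of the 4 was called (edgeR adjusted p up to 0.155, with 5 to 7 receptors at an unadjusted p under 0.05), and without HFD library A Tlr4 alone was. Tlr3 differed by -1.58 (adjusted p = 0.0514), Tlr6 by -1.10 (0.0679), Tlr1 by -0.93 (0.0623) and Tlr2 by -0.26 (0.443). Their levels in HFD against SW libraries were 10.9 and 8.41 against 4.3, 3.92 and 2.18 CPM for Tlr3, and 8.5 and 8.57 against 4.95, 3.66 and 4.12 CPM for Tlr6. Tlr1 had 32.4 and 31.1 against 16.5, 22.7 and 14.4 CPM, and Tlr2 had 56.9 and 45 against 39.9, 50.4 and 47 CPM. Only Tlr2 overlapped among these. In the macrophage list 1 of 11 markers was lower and the median was 0.30. Its sums overlapped, 11000 to 23100 CPM in HFD and 17000 to 24200 in SW, and its part in these falls was not tested.

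The single LFD library of SVCs allows no test. It had 8.02 CPM of Tlr13, 3.68 of Tlr1, 13.2 of Tlr7, 11.9 of Tlr8, 7.37 of Tlr4, 22.8 of Tlr2, 3.68 of Tlr6 and 4.77 of Tlr3. These values were below both HFD libraries, the nearest gap being that of Tlr3 (10.9 and 8.41 CPM). The share of all genes below both HFD libraries was not computed, so this is no result about the family. Tlr9, at 46.2 CPM, and Tlr5, at 28.2 CPM, were above both.

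Tlr5 and Tlr9 set the HFD SVC libraries apart. Tlr9 had 3.94 CPM in library A and 27.5 in library B, against 28.5, 38.9 and 49.3 in SW, and Tlr5 had 0.924 and 8.08 against 13.5, 14.6 and 19. B cells are known to express Tlr9, and 5 B cell markers summed to 18.4 CPM in library A and 214 in library B. They summed to 115 in LFD and to 46, 234 and 78.3 in SW, not in the order of Tlr9 there. Neutrophil (5.18 and 31 CPM), mesothelial (26.6 and 150) and erythroid markers (2330 and 45300) were also higher in HFD library B. So were dendritic cell (30.6 and 63.2), T cell (19.5 and 49.9), macrophage (11000 and 23100) and adipocyte markers (274 and 529). Endothelial (377 and 275) and fibroblast markers (10000 and 7140) were lower in HFD library B. The part of these cells in the Tlr9 levels was not tested. SW exceeded HFD by 1.28 ± 0.73 for Tlr9 (adjusted p = 0.221) and by 1.78 ± 0.79 for Tlr5 (adjusted p = 0.136). Without HFD library B these became 3.13 and 3.91, with adjusted p of 0.0119 and 0.0113.

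The change from HFD to SW was then compared between fractions in a fit over all 15 libraries, where 4 receptors were called (27.1% of 17441 genes were). The adipocyte change minus the SVC change was -4.19 ± 0.88 for Tlr9 (log2, adjusted p = 0.00498) and -3.18 ± 0.89 for Tlr5 (adjusted p = 0.019), the receptors whose SVC values were higher in SW than in HFD. It was 1.54 ± 0.33 for Tlr3 (adjusted p = 0.00549) and 1.01 ± 0.27 for Tlr4 (adjusted p = 0.016), whose SVC differences, -1.58 and -1.84, were larger in size than those in adipocytes, 0.10 and -0.72. For Tlr8 the difference was -1.54 ± 0.73 (adjusted p = 0.135). Leaving out any 1 library left 4 calls.

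Set side by side within SW mice, adipocytes had more Tlr3 (log2 2.23) and Tlr4 (1.35) than SVCs and less Tlr9 (-5.83), Tlr5 (-3.58) and Tlr2 (-1.55), while 32.8% of genes were called higher and 35.6% lower. Within HFD mice Tlr2 (-1.37, adjusted p = 0.000256) and Tlr9 (-1.63, adjusted p = 0.0458) were lower in adipocytes, with 16.2% of genes called lower. The Tlr9 value turned to 0.35 without HFD SVC library B. The summed family was 307 CPM in HFD SVCs (n = 2), 150 in the LFD library and 185 ± 3.94 in SW SVCs, and in HFD the fractions overlapped (302 to 311 CPM against 244 to 357 in adipocytes). Per kb, Tlr13 (20.7) and Tlr2 (16.9) led in HFD SVCs, Tlr9 (13.3) in the LFD library and Tlr2 (15.2), overlapping Tlr9 (11.2), in SW SVCs. Below these in HFD SVCs came Tlr7 (10.8), Tlr1 (10.5), Tlr8 (8.44), Tlr4 (7.51), Tlr9 (4.52), Tlr6 (2.32), Tlr3 (2.19) and Tlr5 (1.18), and Tlr3 was last in SW SVCs at 0.787.

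Of 71 genes listed for Toll-like receptor signalling, 68 were tested in adipocytes, and between LFD and HFD 47 were higher and 5 lower (26.5% and 25% of all genes tested). All 5 adaptors tested were higher: Pik3ap1 (6.03 ± 0.62), which links receptors to PI3-kinase, Ticam2 (3.07 ± 0.22), the bridge between TLR4 and TRIF, Tirap (0.91), Ticam1 (0.75) and Myd88 (0.34). Sarm1 was too low to test. Of the 6 co-receptors and ligand-handling proteins 5 were higher, namely Cd180 (4.98), Ly86 (2.50), Cd14 (2.36), Ly96 (1.02) and Cd36 (0.64), while Lbp had -0.11. CD180 binds MD-1, the product of Ly86, and CD14 hands lipopolysaccharide to TLR4 and MD-2, the product of Ly96.

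Of 8 chaperones and trafficking factors 6 were higher, among them Slc15a3 (3.56), a lysosomal peptide transporter and Unc93b1 (1.95). All 5 receptor-processing proteases were higher, led by Ctss (3.60) and Ctsk (3.36). Of 15 kinases and ubiquitin ligases 9 were higher, with Ikbke (1.84) and Irak4 (0.99) first. The 8 transcription factors split: 5 were higher, Rel (2.87) and Irf5 (2.55) the most, and 3 lower, Irf7 (-0.72) and Irf3 (-0.47) the most. Of 10 negative regulators 6 were higher, led by Il1rl1 (1.89) and Tnfaip3 (0.89), and Sigirr was lower (-1.52). Of 11 target cytokines and enzymes tested 6 were higher, led by Cxcl2 (4.60) and Ccl3 (3.38), and Nos2 was lower (-0.79).

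**Figure D5:**
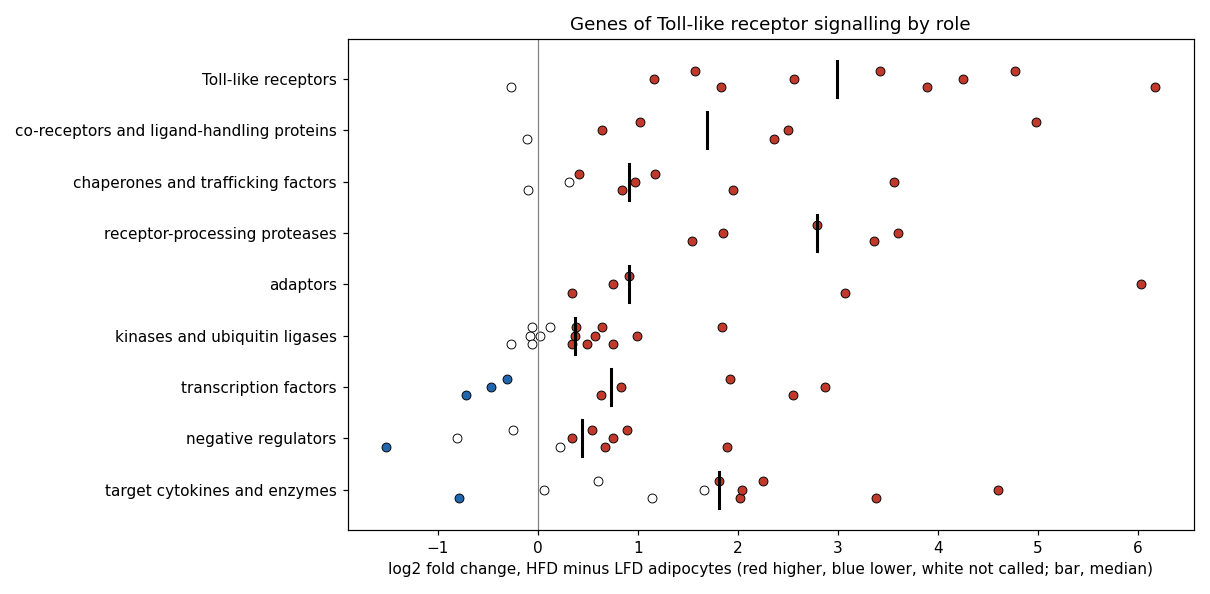
Log2 fold change between HFD and LFD adipocytes of the receptors and of 68 pathway genes, 1 point per gene, grouped by role (red, higher; blue, lower; white, not called; bar, median). The receptors' median, 2.99, and that of the proteases, 2.79, are the highest of the 9 groups. The former includes Tlr8, whose rise was known when the family was chosen.

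From HFD to SW 10 of the 68 were higher and 18 lower, against 15.6% and 15.9% of all genes. Lower were Pik3ap1 (-2.66), Ticam2 (-1.19), Tirap (-0.80) and Cd180 (-1.47), beside the 8 receptors. Of the 11 target cytokines and enzymes, 5 were higher in SW and none lower, Cxcl2 (1.40) among them. Against LFD, 33 of the 68 were higher in SW adipocytes and 1, Nos2, was lower (10.9% and 6.18% of all genes). In SVCs 2 of 70 were higher and 14 lower from HFD to SW (5.71% and 11.7% of all genes).

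Over the 15 libraries, the genes most like each member in log2 CPM were sought among 12270 genes. Tlr13 was closest to Mpeg1 (r = 0.997), which encodes the pore-forming protein perforin-2 of macrophages, then Dhrs9 (0.992) and Cd44 (0.982). Tlr1 was closest to Apobec1 (0.987), Tlr2 to Il10ra (0.99), Tlr4 to Serpinb6b (0.979), Tlr6 to Adcy7 (0.972), Tlr7 to Tnfrsf11a (0.987), Tlr8 to Snx9 (0.966) and Tlr9 to Stat6 (0.986). Tlr3 was closest to Hmgb1 (0.989) and Tlr5 to Ubap2 (0.973). Within the family Tlr1 and Tlr13 were most alike (r = 0.97), Tlr7 was close to Tlr6 and Tlr13 (0.94 each), and Tlr3 ran against Tlr5 (-0.86) and Tlr9 (-0.84). The points share fraction and diet, so these values describe these libraries.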

How the data were processed

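PolyA RNA of adipocytes and SVCs was sequenced by the authors, mapped with Bowtie2 (build mm9 per the labels) and quantified with RSEM. The deposited tables hold RSEM's estimated counts (expected counts) per gene as whole numbers, without normalization. Tool versions are not given in the sources used here. The labels hold 26 samples of 18 libraries, and whether repeat runs were added up is not stated. The labels name some runs single and others paired-end, and which columns hold which is not stated. The columns carry numbers found in no label, so 15 columns served as replicates within their groups (9 adipocyte, 6 SVC). SVC HFD library A and the SVC LFD library are numbered 212 and 236, and the others lie between 401 and 414. Whether this marks a difference in handling is not stated. A further 3 value columns were not used because their names match no group.

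Counts were tested with edgeR 4.0.16 (R 4.3.3): genes kept by filterByExpr (minimum count 10), TMM scaling, robust quasi-likelihood test, Benjamini-Hochberg adjustment over all genes tested and a threshold of 0.05. Fits were made over the 9 adipocyte libraries (14461 genes), the 6 SVC libraries (16319) and all 15 (17441, fraction comparisons and CPM). All 10 members passed the filter in each fit, 5 of them in adipocytes with fewer than 10 counts in some library. SE is the log2 fold change divided by the square root of F. The steps were tested on simulated data. DESeq2 1.42.0, limma 3.58.1 (voom), other scalings and filters, and leaving out each library were the alternatives. Positions came from GENCODE M21, in which 37693 of the 39017 gene IDs were found.

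Members, lists and motifs were chosen with earlier results of these data known. Named were all members, all adaptors and co-receptors, Unc93b1 and, for each other role, the 2 largest called rises and falls, with the genes closest in pattern (log2 CPM, prior count 2, mean of at least 1). Adgre1 was matched by its ID.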

Additional observations from a re-analysis of the deposited data

Results flagged for a closer look

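For 4 of the 10 receptors the response to the diet switch was unequal in adipocytes and SVCs by a test of the difference itself (edgeR quasi-likelihood test). Of the 17441 genes over which it was adjusted, 27.1% were called. The adipocyte change minus the SVC change was -4.19 for Tlr9 (adjusted p = 0.00498), -3.18 for Tlr5 (adjusted p = 0.019), 1.54 for Tlr3 (adjusted p = 0.00549) and 1.01 for Tlr4 (adjusted p = 0.016), on the log2 scale. Over the 16 or 17 alternatives of each, these stayed between -6.07 and -3.37, -5.33 and -2.31, 1.33 and 1.83, and 0.90 and 1.21, all called. For Tlr9 and Tlr5 the SVC side rests on 2 HFD libraries that differ, 3.94 against 27.5 CPM and 0.924 against 8.08 CPM.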

How the results depend on the processing

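Over 80 results and 1024 alternatives, 945 values kept their direction and their side of the threshold, 43 lost the call, 21 gained one and 15 changed sign. Requiring 10 counts in every library left only 5 members to test in adipocytes and in the fit of both fractions. The calls were then 4 for HFD against LFD, 3 for SW against HFD, 4 for SW against LFD, 4 for HFD and SW together against LFD (8 in the fit reported) and 2 for the difference between fractions. In SVCs, where all 10 could be tested, the same filter gave 7 calls between SW and HFD. With no filter on low counts HFD adipocytes against SVCs gave 1 call. With exon unions as length the endosomal share in the LFD SVC library was 57.3% against 55%.

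Leaving out 1 library at a time gave 8 to 9 calls for HFD against LFD, 5 to 7 for SW against HFD, 6 to 7 for SW against LFD, 8 for HFD and SW against LFD, 0 to 7 for SW against HFD in SVCs, 4 for the difference between fractions, 5 to 7 for SW adipocytes against SVCs and 1 to 4 for HFD adipocytes against SVCs. The last was 1 without HFD adipocyte library A, B or C or HFD SVC library B. Where this left 1 HFD SVC library, that library was assumed to vary like the other groups. SVC calls over all genes fell from 2849 to 0 without SW library A or C (edgeR; unadjusted p under 0.05 in 5435 and 4217 genes), 593 without SW library B and 503 without HFD library A, and were 6213 without HFD library B. The endosomal share stayed at 63.2% to 66.1% (HFD), 48.1% to 50.8% (LFD) and 55.1% to 56.9% (SW) in adipocytes.

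Signs changed when 1 library was left out, apart from Tlr5 in HFD adipocytes against SVCs, which limma-voom also turned (0.44). The ranges were -0.52 to 0.18 for Tlr5 in SW against LFD, -0.48 to 0.08 for Tlr2 in SVCs, and -0.36 to 0.08 for Tlr2 and -0.25 to 0.15 for Tlr6 in the difference between fractions. For HFD adipocytes against SVCs they were -1.26 to 1.86 for Tlr5, -0.34 to 0.01 for Tlr6, -0.27 to 0.05 for Tlr7, -0.01 to 0.28 for Tlr13 and -2.45 to 0.35 for Tlr9, the only called value among them. The causes were not tested. Upper-quartile scaling moved the median of all genes between HFD and LFD to -0.12 and the calls from 3836 higher and 3612 lower to 3294 and 4283, and Tlr5 was then not called. For SW against HFD it gave 2613 higher and 1937 lower (2252 and 2294 in the fit reported), and for HFD adipocytes against SVCs 1808 and 3420 (2244 and 2834). No paired analysis was possible because the columns carry numbers that are in no label.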
